A study of Mus musculus with 14 samples.

Results

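Among the 43346 genes of the table, 58 encode lysosomal enzymes, their cofactors, lysosomal membrane proteins or parts of the vacuolar proton pump (V-ATPase), and their RNA was compared among 3 groups of aged mouse brains. They were taken by name: 34 of 35 listed symbols had an entry, Limp2 being an older name of Scarb2, which is among them, and 24 V-ATPase genes were found by a symbol pattern. Cathepsins were left out. By role, 7 of the genes encode membrane proteins, 23 hydrolases (11 glycosidases, 5 sulfatases, 5 enzymes of lipid breakdown and 2 peptidases) and 4 cofactors. Of the V-ATPase genes, 13 encode V1 subunits, 9 V0 subunits and 2 accessory proteins.

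RNA sequencing was done on a cross-section of brain with hippocampus and cortex from 14 female mice at 23 months of age, strain C57BL/6;SJL-Tg. The groups were 4 non-transgenic (NTG, labelled wild type) mice, 5 APP/PS1 mice (labelled APP/PS1 +/+) and 5 APP/PS1 mice that received CP2, a partial inhibitor of complex I of the respiratory chain, at 25 mg/kg/day. CP2 was taken in drinking water that contained PEG from 9 months of age for 14 months, and the other mice drank water with PEG alone. APP/PS1 mice carry transgenes for the amyloid precursor protein and presenilin 1 and develop amyloid plaques, and the promoters of the transgenes are not given in the sources used here. NTG mice given CP2 were not analysed here, so any effect of CP2 was seen on the APP/PS1 genotype alone. Each mouse gave 1 library, and the mice are called by the library numbers, which were 7 to 10 for NTG, 16 to 20 for APP/PS1 and 21 to 25 for CP2-treated APP/PS1.

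Lysosomes break down material from endocytosis, phagocytosis and autophagy with acid hydrolases, which are made in the endoplasmic reticulum and mostly delivered by mannose 6-phosphate receptors. The V-ATPase keeps the lumen acidic: its cytosolic V1 sector hydrolyses ATP and its membrane-bound V0 sector moves protons. In brain the pump also acidifies synaptic vesicles, so neurons use much of it outside lysosomes, whereas microglia, the phagocytes of brain, are rich in lysosomal enzymes. Many genes of both kinds carry an E-box with the letters CACGTG near their start, to which the transcription factors TFEB, TFE3 and MITF can bind.

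Total counts per library ranged from 70548781 to 106235625, and TMM factors from 0.953 to 1.03. Levels are given as CPM, counts relative to library size, scaled by these factors, where a single count was worth 0.00918 to 0.0149 CPM, and where no count was seen the level could still reach 0.0446 CPM (3 counts, for counting error only). Of 9 striatal markers found (10 were listed), the summed level was 2735 CPM in APP/PS1 mouse 16 and 242 to 449 CPM in the other 13 mice. This library therefore stood apart, and the counts and class medians of the lysosomal genes in the comparisons with APP/PS1 mice are also given without it, whereas other lists, subunit shares and levels per mouse are given with it. Defining markers of the tissue were present, with the summed level of 12 neuronal markers between 8299 and 10077 CPM in all mice.

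Per length, V-ATPase genes were the most abundant class in NTG brain. Median RPKM (reads relative to gene length and library size, computed by the authors) was 69.2 over 20 V-ATPase genes that passed the filter on low counts, 25.8 over 4 cofactors, 11.8 over 7 membrane proteins and 7.67 over 23 hydrolases. The 4 genes that the filter removed were all V-ATPase genes, each at a mean of 0.144 RPKM or less. The median of this class alone therefore leaves out its lowest genes. Psap, the precursor of the saposins that present sphingolipids to hydrolases, was first of the 58 genes, with a mean RPKM of 418, followed by Atp6v1e1 (V1 subunit E) with 216 and Lamp1, a heavily glycosylated membrane protein, with 116. Among hydrolases Ids, which removes sulfate from heparan and dermatan sulfate, had 81.8 RPKM and Manba, a beta-mannosidase, 1.29 RPKM.

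**Figure D1:**
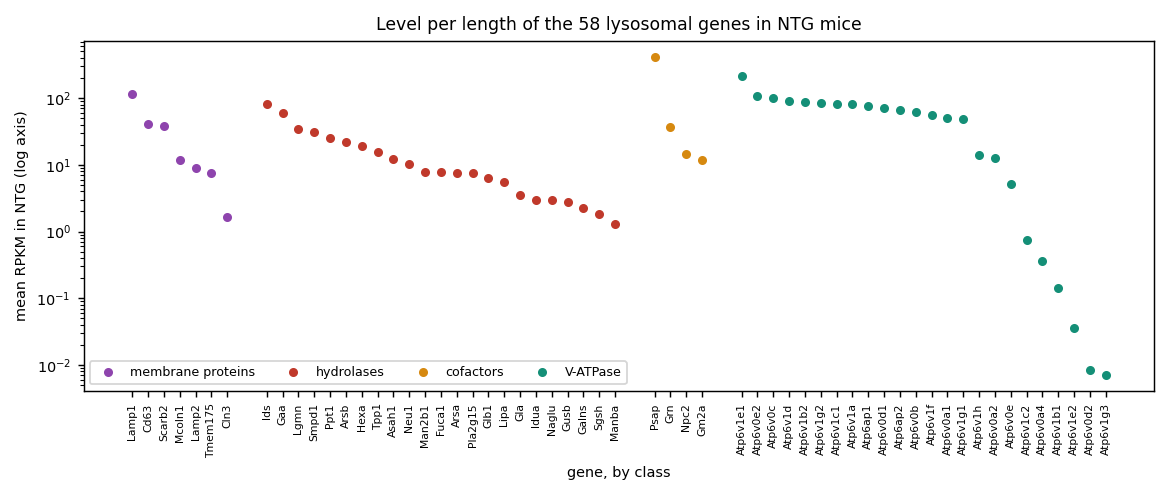
Mean RPKM over the 4 NTG mice (log axis) for each of the 58 genes, grouped by class and ordered by level. Of the 20 V-ATPase genes tested 15 lie between 49.3 and 216 RPKM, and 21 of 23 hydrolases at or below 34.8 RPKM, while Atp6v1b1, Atp6v1e2, Atp6v0d2 and Atp6v1g3 at the bottom right were not tested.

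The first comparison asked how the APP/PS1 genotype changed these transcripts. In APP/PS1 mice 8 of 23 hydrolases rose, led by Man2b1, Gusb, Hexa and Naglu. None of the V-ATPase genes found by the symbol pattern passed the adjusted test in either direction. Tcirg1, a V-ATPase subunit outside that pattern, was higher (log2 fold change 0.67, edgeR adjusted p = 0.00161). Of the 54 genes tested, 11 were higher than in NTG mice at an adjusted p under 0.05 (edgeR quasi-likelihood test, Benjamini-Hochberg adjustment over the 16417 genes tested), and 0 were lower, where 4.34% of all genes tested were higher and 1.34% lower. By class these were 8 of 23 hydrolases, 2 of 4 cofactors, 1 of 7 membrane proteins and 0 of 20 V-ATPase genes. At an unadjusted p under 0.05, the study's own threshold, 21 were higher and 0 lower (10.6% and 8.05% of all genes tested): 12 hydrolases, 5 membrane proteins, 3 cofactors and 1 V-ATPase gene. The levels of all APP/PS1 mice lay above those of all NTG mice for 12 genes and below for 0, against 6.13% and 3.83% of all genes tested. The share of ribosomal RNA-like counts was 4.71 to 7.50% in NTG, 2.40 to 5.51% in APP/PS1 and 4.49 to 7.40% in CP2-treated mice. With this share as a covariate 10 lysosomal genes were called in the first comparison, where 646 of all genes were higher, against 712 without it. The hydrolase median then lay 0.33 above that of the V-ATPase genes, against 0.21 without the covariate.

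The median log2 fold change was 0.20 over the hydrolases, 0.23 over the membrane proteins, 0.45 over the cofactors and -0.0074 over the V-ATPase genes, beside -0.0042 over all genes tested. Hydrolases and V-ATPase genes thus differed in median by 0.21. Above 0 were 21 of 23 hydrolases and 9 of 20 V-ATPase genes. Standard errors were not larger for the pump, with a median of 0.07 over V-ATPase genes and 0.09 over hydrolases.

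**Figure D2:**
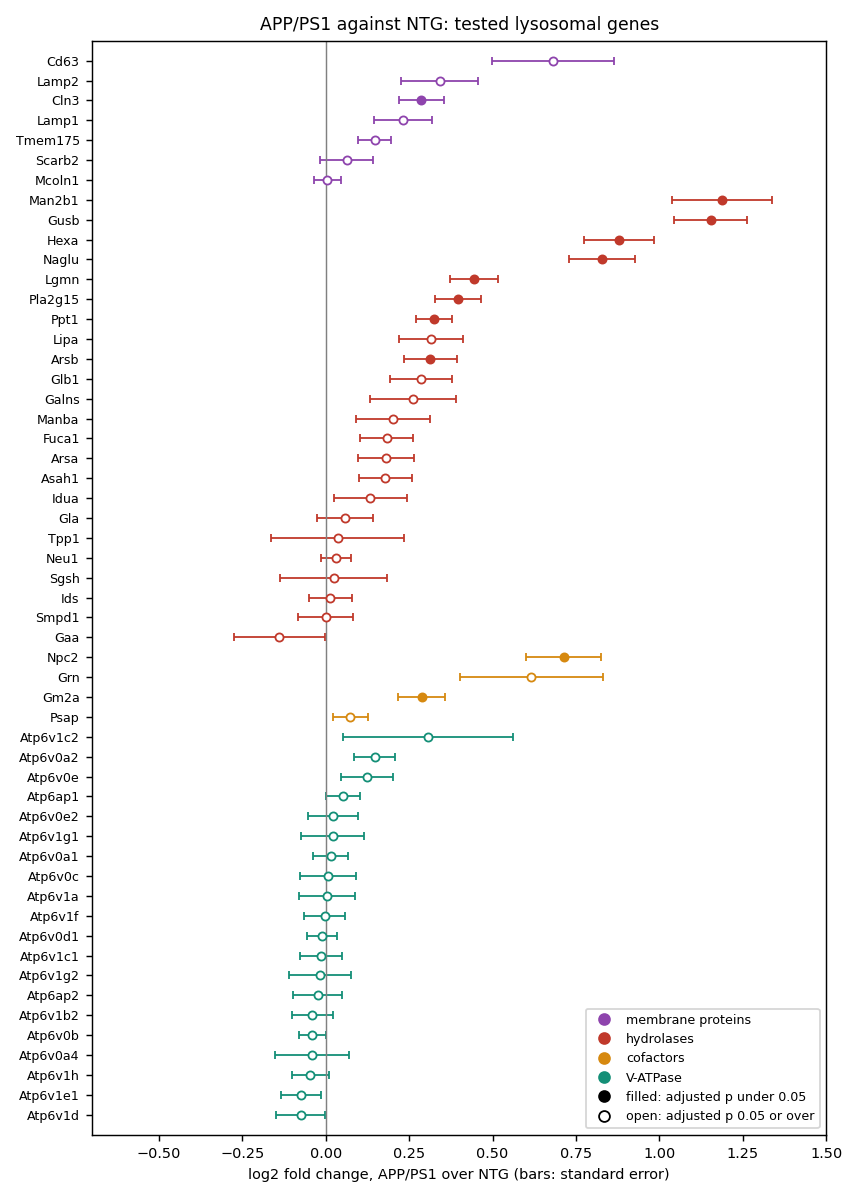
Log2 fold change of APP/PS1 over NTG mice (x axis) for the 54 genes tested (y axis), with standard errors as bars, colours for the classes and filled points for an adjusted p under 0.05. The 11 filled points are all above 0, and the V-ATPase genes lie around 0, from -0.075 to 0.31.

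The largest changes were those of 4 glycosidases, which remove sugars one by one from the ends of glycans. Gusb, the beta-glucuronidase that acts on glycosaminoglycans, was at 16.4, 16.3, 15.5 and 13.8 CPM in NTG mice and at 27.7, 32.04, 35.2, 41.4 and 35.7 CPM in APP/PS1 mice. The ranges did not overlap and the mean rose 2.224-fold (log2 fold change 1.15, standard error 0.110, adjusted p = 0.000315). Man2b1, the lysosomal alpha-mannosidase, was at 39.9, 40.4, 37.6 and 47.5 CPM in NTG and at 76.04, 79.4, 83.96, 123 and 109 CPM in APP/PS1 mice. It rose 2.279-fold (log2 fold change 1.19, standard error 0.149, adjusted p = 0.00128), mice 19 and 20 being well above the other 3.

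Hexa encodes the alpha subunit of a hexosaminidase that degrades GM2 ganglioside with the help of the activator Gm2a. Its levels were 43.98, 43.1, 42.3 and 45.4 CPM in NTG and 66.6, 73.1, 73.99, 95.6 and 92.6 CPM in APP/PS1 mice, again without overlap (log2 fold change 0.88, standard error 0.106, adjusted p = 0.00106). Naglu, which removes N-acetylglucosamine from heparan sulfate, was low in NTG mice at 9.73, 10.6, 9.04 and 9.56 CPM and reached 14.3, 17.04, 16.8, 20.3 and 17.9 CPM in APP/PS1 mice (log2 fold change 0.83, standard error 0.099, adjusted p = 0.00101). Every APP/PS1 mouse was above every NTG mouse for both genes.

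Smaller rises were seen in the other classes of enzyme. Lgmn, an asparaginyl endopeptidase that also processes cathepsins, was at 105, 99.5, 102 and 96.7 CPM in NTG and 116, 134, 142, 152 and 141 CPM in APP/PS1 mice (log2 fold change 0.45, standard error 0.072, adjusted p = 0.00506). Of the enzymes of lipid breakdown, Pla2g15, the lysosomal phospholipase A2, and Ppt1, which removes palmitate from proteins, rose with log2 fold changes of 0.40 and 0.32 (adjusted p = 0.00817 and 0.00611). Arsb, a sulfatase of dermatan and chondroitin sulfate, rose by the least of the 8 (log2 fold change 0.31, adjusted p = 0.0471). The library kit did not mark strand, and 32.3% of the exon bases of Arsb in GENCODE vM21 are shared with the opposite-strand gene Gm26527. Reads from shared bases cannot be told apart. Arsb has 6037 exon bases there but a length of 3989 in the deposited data, so how much of the overlap was counted is not known. In all, by the same annotation, 17 of the 58 genes share exon bases with another gene, 11 of them over 5%, among which are Hexa (12.8%), Lamp1 (9.31%) and Cln3 (7.65%).

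A further 4 hydrolases passed the unadjusted threshold alone. These were Lipa, the acid lipase of cholesteryl esters (log2 fold change 0.31, standard error 0.096), Glb1, the beta-galactosidase of GM1 ganglioside (0.28, standard error 0.092), the fucosidase Fuca1 (0.18, standard error 0.080) and the acid ceramidase Asah1 (0.18, standard error 0.079), with adjusted p from 0.0956 to 0.256. The remaining 11 did not pass either threshold. Among them the sulfatases Galns and Arsa had log2 fold changes of 0.26 and 0.18, Manba 0.20 and Idua, the iduronidase, 0.13. Values closer to 0 were those of Gla (alpha-galactosidase, 0.058), Neu1 (sialidase, 0.03), Sgsh (sulfamidase, 0.024), Ids (0.014) and Smpd1 (acid sphingomyelinase, -0.0006).

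Tpp1, a tripeptidyl peptidase, had a log2 fold change of 0.035 with one of the larger standard errors (0.199). Its levels in APP/PS1 mice were 78.02, 92.03, 45.6, 49.6 and 86.1 CPM, so that mice 18 and 19 lay below and mice 16, 17 and 20 above all NTG mice (68.3, 70.5, 64.5 and 70.99 CPM). Gaa, the acid alpha-glucosidase that degrades glycogen in lysosomes, had the lowest value of the hydrolases (log2 fold change -0.14, standard error 0.137), and its NTG levels were spread from 295 to 463 CPM.

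Cofactors carry lipids to the enzymes or regulate them. Npc2, which passes cholesterol to the exporter Npc1, was at 66.1, 55.5, 54.4 and 57.04 CPM in NTG and 72.2, 99.3, 98.4, 109 and 98.4 CPM in APP/PS1 mice (log2 fold change 0.71, standard error 0.112, adjusted p = 0.00416), with no overlap. Gm2a, the GM2 activator, was at 62.3, 59.7, 60.6 and 63.2 CPM in NTG and 63.6, 77.5, 79.4, 81.6 and 72.7 CPM in APP/PS1 mice. The groups did not overlap, mouse 16 being just above the highest NTG mouse (log2 fold change 0.29, standard error 0.070, adjusted p = 0.0412), and this call was lost with most single mice left out. Grn, the progranulin precursor, varied most, at 156, 208, 132 and 149.9 CPM in NTG and 164, 266, 189.6, 347 and 269.6 CPM in APP/PS1 mice. Its groups overlapped (log2 fold change 0.62, standard error 0.215, adjusted p = 0.15), and Psap had a log2 fold change of 0.073 (adjusted p = 0.524).

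Of the membrane proteins only Cln3, which is mutated in juvenile Batten disease, passed the adjusted test. It was at 12.04, 11.1, 12.03 and 12.6 CPM in NTG and 13.3, 14.4, 14.5, 15.5 and 15.1 CPM in APP/PS1 mice (log2 fold change 0.29, standard error 0.067, adjusted p = 0.0333), a call that, like that of Gm2a, was lost in most fits without a mouse. Cd63, a tetraspanin of late endosomes and exosomes, had the largest estimate in the class, with 61.3, 52.9, 45.3 and 48.7 CPM in NTG and 50.9, 83.9, 98.8, 103 and 81.1 CPM in APP/PS1 mice. Mouse 16 alone lay within the NTG range (log2 fold change 0.68, standard error 0.183, adjusted p = 0.0614). The lysosome-associated membrane proteins that line the organelle showed the same mouse as the lowest of its group. Lamp1 was at 336, 321, 309 and 337 CPM in NTG and 312, 378, 418, 431 and 373 CPM in APP/PS1 mice (log2 fold change 0.23, standard error 0.088, adjusted p = 0.184), and Lamp2, the receptor of chaperone-mediated autophagy, at 122, 115, 93.5 and 96.4 CPM and 108, 138, 147, 155 and 129 CPM (log2 fold change 0.34, standard error 0.116, adjusted p = 0.137).

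Tmem175, a potassium and proton channel of lysosomes, was at 36.5, 34.7, 38.4 and 36.8 CPM in NTG and 39.6, 39.5, 38.4, 41.6 and 43.4 CPM in APP/PS1 mice (log2 fold change 0.15, standard error 0.051, adjusted p = 0.148). The groups came close without overlapping in unrounded values, and 35.3% of its exon bases in GENCODE vM21 are shared with the opposite-strand gene Dgkq. It has 5928 exon bases there against a length of 3875 in the deposited data, so the share counted is not known. Scarb2, the receptor that carries glucocerebrosidase to lysosomes, and Mcoln1, a calcium channel, had log2 fold changes of 0.063 and 0.005 (adjusted p = 0.738 and 0.967).

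**Figure D3:**
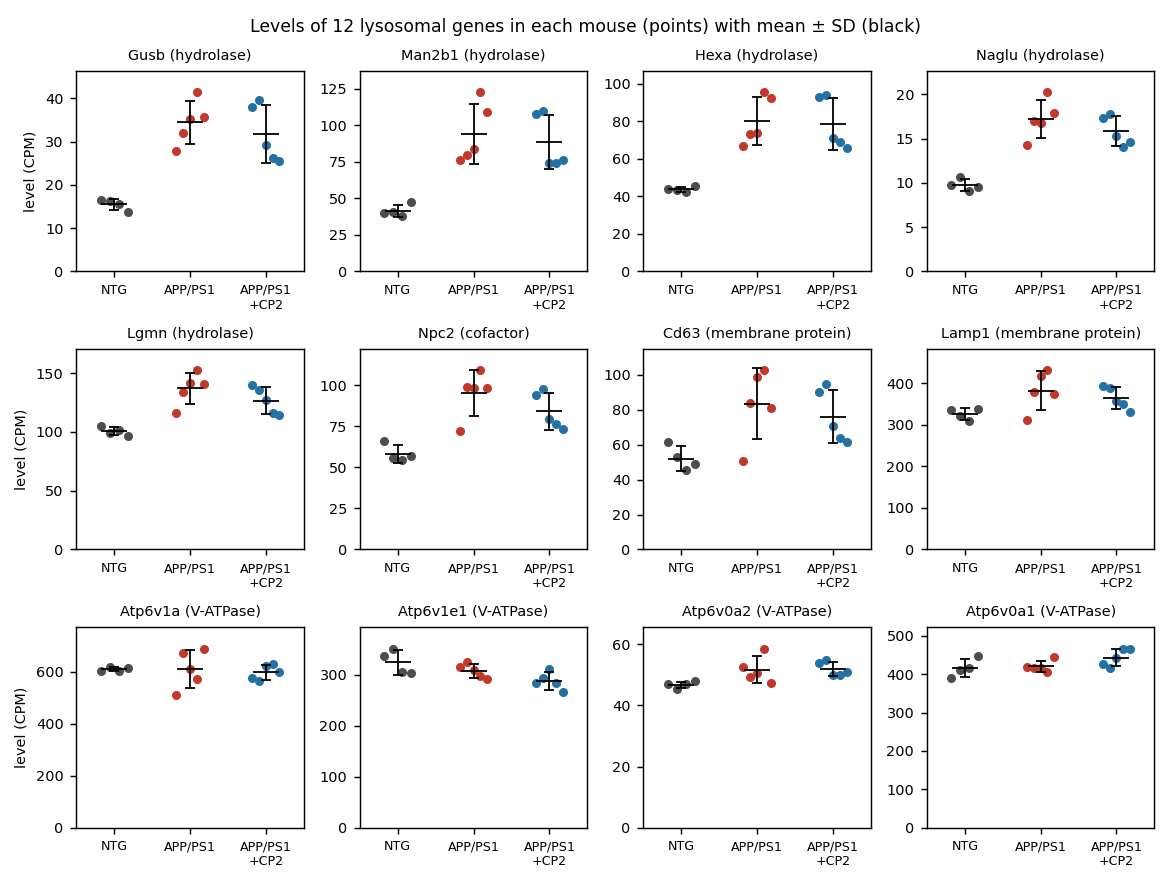
Level in CPM (y axis, from 0) of 12 genes in each mouse (points) by group, with mean and SD in black. Gusb, Man2b1, Hexa, Naglu, Lgmn and Npc2 are higher in all APP/PS1 mice than in all NTG mice, Cd63 and Lamp1 overlap through 1 APP/PS1 mouse, and the 4 V-ATPase genes in the bottom row overlap between NTG and APP/PS1 mice.

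Of the V-ATPase genes found by the symbol pattern none passed the adjusted test in APP/PS1 against NTG mice by edgeR, DESeq2 or limma-voom. At an unadjusted p 1 of 20 passed. That gene, Atp6v0a2, an a subunit of V0, was at 46.9, 45.4, 46.9 and 47.9 CPM in NTG and 52.7, 49.2, 50.6, 58.6 and 47.5 CPM in APP/PS1 mice. Mouse 20 lay within the NTG range (log2 fold change 0.15, standard error 0.061, edgeR unadjusted p = 0.0388, adjusted p = 0.232). In the V1 sector the catalytic subunit A (Atp6v1a) had a log2 fold change of 0.003 with a standard error of 0.084, and the B subunit Atp6v1b2 one of -0.04. The stalk and regulatory subunits were at -0.015 for Atp6v1c1, -0.075 for Atp6v1d, -0.074 for Atp6v1e1, 0.02 for Atp6v1g1, -0.017 for Atp6v1g2, -0.046 for Atp6v1h and -0.0033 for Atp6v1f. Atp6v1c2, a rare C isoform at 1.91 ± 0.59 CPM (SD, n = 4), had the largest estimate and the largest standard error of the pump (log2 fold change 0.31, standard error 0.255).

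In the V0 sector the proteolipid ring subunits Atp6v0c and Atp6v0b had log2 fold changes of 0.0066 and -0.041, the d subunit Atp6v0d1 -0.012, the e subunits Atp6v0e and Atp6v0e2 0.12 and 0.021, and the a subunits Atp6v0a1 and Atp6v0a4 0.015 and -0.041. The accessory proteins Atp6ap1 and Atp6ap2 (the prorenin receptor) were at 0.052 and -0.024. Standard errors over the 20 genes were 0.04 to 0.25, so that small changes in either direction were not detectable.

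Low counts kept 4 V-ATPase genes out of the tests. Atp6v0d2, a d isoform known from osteoclasts and macrophages, had 8, 0, 0 and 2 counts in NTG mice and 21, 15, 20, 19 and 33 counts in APP/PS1 mice, and 9, 14, 34, 15 and 10 counts with CP2. Every APP/PS1 mouse thus had more reads than any NTG mouse. Fitted without the filter, it had an estimate of 2.95 on the log2 scale (standard error 0.72, edgeR adjusted p = 0.0514), a value that depends on the prior count at such levels. Atp6v1b1, the B isoform of acid-secreting epithelia, had 17 to 42 counts per mouse, Atp6v1e2 0 to 9 and Atp6v1g3 0 to 4.

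One V-ATPase subunit has a symbol outside the pattern. Tcirg1 encodes a3, the a subunit of osteoclast and phagocyte lysosomes, and was at 15.02, 14.3, 15.5 and 15.03 CPM in NTG and 20.7, 23.1, 23.6, 28.9 and 23.1 CPM in APP/PS1 mice. It rose without overlap (log2 fold change 0.67, standard error 0.089, adjusted p = 0.00161). Among the 4 a isoforms, its share of summed RPKM was 3.82 to 4.26% in NTG, 5.35 to 7.33% in APP/PS1 and 4.66 to 6.66% in CP2-treated mice, while Atp6v0a1 held 75.5 to 77.6%, 70.2 to 76.1% and 72.2 to 76.9%. Other subunits came from 1 main isoform, with at least 99.75% of RPKM from Atp6v1b2 over Atp6v1b1, 98.5% from Atp6v1c1 over Atp6v1c2 and 93.8% from Atp6v0e2 over Atp6v0e in every mouse. The exception was the G subunit, of which Atp6v1g2 held 57.97 to 71.6% beside Atp6v1g1.

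Other lysosomal genes were taken from lists made by function. Of 18 other lysosomal enzymes tested, 5 were higher and 1 lower at an adjusted p under 0.05, where 4.34% of all genes tested were higher and 1.34% lower. The lower one was Hgsnat, the acetyltransferase of heparan sulfate breakdown (log2 fold change -0.24, adjusted p = 0.0253), and next by p was the amidase Naaa (log2 fold change -0.12, adjusted p = 0.715). Of 26 other membrane proteins and transporters 6 were higher and 0 lower, led by Cd68 (log2 fold change 2.28, adjusted p = 4.99e-05) and Laptm5 (log2 fold change 1.40, adjusted p = 0.000354), both typical of phagocytes. The smallest p below 0 in that list were those of Slc38a9 (log2 fold change -0.20, adjusted p = 0.242) and Tmem9 (log2 fold change -0.12, adjusted p = 0.411).

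Of 21 genes of enzyme delivery and regulation 1 was higher, a count near the share over all genes tested (4.34%). It was Fnip2, a folliculin partner (log2 fold change 0.28, adjusted p = 0.0158), followed by Nagpa, which uncovers mannose 6-phosphate (log2 fold change 0.28, adjusted p = 0.0784). Below 0 the leading genes were Sort1 (log2 fold change -0.11, adjusted p = 0.313) and Lamtor5 (log2 fold change -0.098, adjusted p = 0.639). Of 13 partners and assembly factors of the V-ATPase, a list that also held the subunit Tcirg1, 2 were higher and 0 lower. The 2 were Tcirg1 and Atp6ap1l, an Atp6ap1-like gene (log2 fold change 0.70, adjusted p = 0.0278). Rogdi (log2 fold change -0.12, adjusted p = 0.336) and Oxr1 (log2 fold change -0.14, adjusted p = 0.365) were first below 0. Tfeb itself was at 11.1, 8.90, 9.40 and 9.29 CPM in NTG and 8.40, 9.85, 11.5, 13.3 and 10.7 CPM in APP/PS1 mice, groups that overlapped (log2 fold change 0.15, standard error 0.129, adjusted p = 0.593). Its relatives Tfe3 and Mitf had log2 fold changes of 0.12 and 0.22 (adjusted p = 0.328 and 0.292).

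Markers of microglia moved with these genes. All 12 microglial markers had estimates above 0 in APP/PS1 against NTG mice and 10 were higher at an adjusted p under 0.05, and their summed level was 479 to 486 CPM in NTG, 870 to 1310 CPM in APP/PS1 and 769 to 1106 CPM in CP2-treated mice, with none at 0. A list of 14 markers of plaque-associated microglia (15 entries, Clec7a having 2) had 13 higher, with sums of 210.1 to 267 CPM in NTG and 407 to 646 CPM in APP/PS1 mice. These lists share some genes, among them Cd68 and Gpnmb, with the lists of lysosomal genes above. Of 12 neuronal markers 0 passed the adjusted test, with sums of 8475 to 10077 CPM in NTG and 8299 to 10033 CPM in APP/PS1 mice, and of 10 astrocyte markers 1 (Gfap) was higher and 1 (Slc1a2) lower, with sums of 5904 to 6196 and 5735 to 7893 CPM. Of 10 oligodendrocyte and 10 endothelial markers 1 each (Cldn11 and Pecam1) was higher, of 5 blood markers tested 2 were higher, and of 9 striatal, 5 choroid plexus and 8 meningeal markers tested 0 passed. Over all genes tested, 4.34% were higher and 1.34% lower at an adjusted p under 0.05. Choroid plexus markers summed to 27.6 to 1373 CPM over all mice, with wide spread in every group. The part of the cell types in the changes of the lysosomal genes was not tested, and in such tissue fewer cells of a type and less RNA per cell cannot be told apart.

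Within APP/PS1 mice the hydrolases, the microglial markers and the astrocyte markers had the same highest and lowest mouse. The lowest, mouse 16, was the library with high striatal markers. Its oligodendrocyte and meningeal sums were also the lowest of the group (5029 and 97.5 CPM), and its neuronal sum was the highest (10033 CPM). The median log2 CPM of the hydrolases, relative to the mean of all mice, was highest in mouse 19 at 0.21 and lowest in mouse 16 at -0.0205, the summed microglial markers were 1310 CPM in mouse 19 and 870 CPM in mouse 16, and the summed astrocyte markers 7893 and 5735 CPM. In the other groups the highest and lowest mice were not all the same. Among treated mice, mice 21 and 22 were highest and mice 24 and 25 lowest by either measure, and only the order within these pairs differed. Hydrolase medians were 0.166, 0.1385, 0.0656, -0.0111 and -0.0106 in mice 21 to 25. Microglial sums were 1062.5, 1105.5, 909.8, 796.3 and 769.1 CPM. Among NTG mice the hydrolase median was highest in mouse 10 and the microglial sum in mouse 7. For NTG mice the hydrolase median was between -0.21 and -0.14, below every APP/PS1 mouse. V-ATPase medians were between -0.0339 and 0.0315 in NTG and between -0.0784 and 0.0958 in APP/PS1 mice, and mouse 19 was the lowest there.

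**Figure D4:**
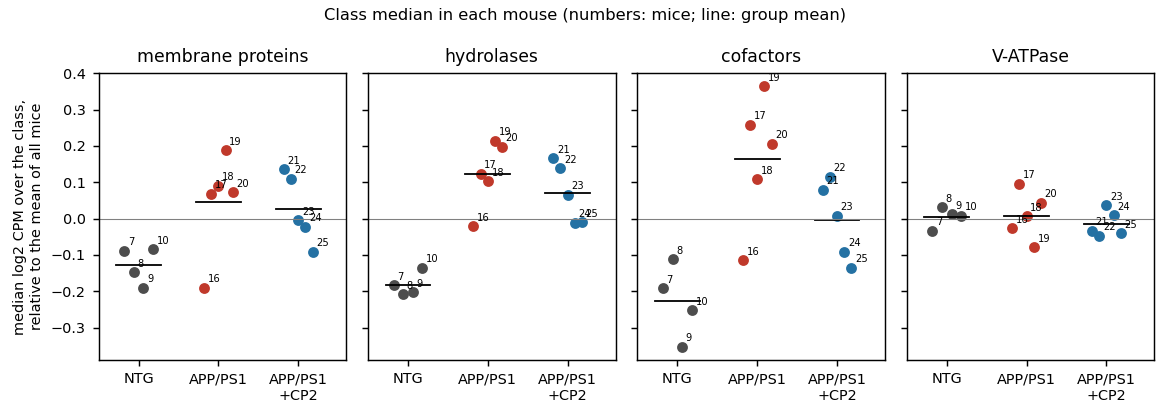
Median over each class of log2 CPM relative to the mean of all mice (y axis), for each mouse (points, with mouse numbers) by group, with a line at the group mean. Hydrolase medians of the APP/PS1 mice, from -0.0205 to 0.21, lie above those of the NTG mice, while V-ATPase medians of the 3 groups overlap.

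Without mouse 16, the library with high striatal markers, 18 of 54 genes were higher in APP/PS1 than in NTG mice at an adjusted p under 0.05 and 0 lower, where 6.62% of all genes tested were higher. They were 11 hydrolases, 4 membrane proteins and 3 cofactors, and V-ATPase genes again numbered 0. At an unadjusted p under 0.05, V-ATPase genes also numbered 0, against 1 with all mice. Added to the calls were Cd63 (log2 fold change 0.81, adjusted p = 0.000905), Lamp1 (0.30, adjusted p = 0.0145), Lamp2 (0.41, adjusted p = 0.0218), Grn (0.73, adjusted p = 0.033), Lipa (0.38, adjusted p = 0.00555), Glb1 (0.35, adjusted p = 0.0114) and Fuca1 (0.24, adjusted p = 0.0424). The medians were then 0.26 for hydrolases and -0.0078 for V-ATPase genes.

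The letters CACGTG were looked for in the windows from 250 bases before to 50 after gene starts (RefSeq, GRCm38.p6), on both strands, of the 50 genes that had a window. They stood in 28% of these genes, against 8.89% of all 18148 genes with a window and 11.4% of 11121 tested genes with one. By class the share was 42.9% of 7 membrane proteins, 33.3% of 21 hydrolases, 0 of 4 cofactors and 22.2% of 18 V-ATPase genes. Of the 11 genes called in APP/PS1 against NTG mice 3 held the letters (27.3%), a share close to that of the 50 genes. The longer TCACGTGA, which contains the shorter letters, stood in 12% of the 50 genes, 1.39% of all genes and 2.05% of tested genes with a window. By class it stood in 28.6% of membrane proteins, 4.76% of hydrolases, 0 cofactors and 16.7% of V-ATPase genes. As examples, sites of 3 genes that were called and of 3 that were not are shown in the direction of transcription with the letters in capitals. A difference in response between these genes was not tested.
Naglu (hydrolase, higher), chr11:101070009-101070038 on the plus strand: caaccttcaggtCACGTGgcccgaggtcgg
Lgmn (hydrolase, higher), chr12:102439124-102439153 on the minus strand: tggaatgtctgtCACGTGgtccattttata
Cln3 (membrane protein, higher), chr7:126583340-126583369 on the minus strand: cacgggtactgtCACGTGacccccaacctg
Gla (hydrolase, not called), chrX:134601182-134601211 on the minus strand: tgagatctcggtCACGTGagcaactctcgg
Atp6v1a (V-ATPase, not called), chr16:44139373-44139402 on the minus strand: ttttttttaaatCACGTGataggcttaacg
Atp6v0b (V-ATPase, not called), chr4:117887330-117887359 on the minus strand: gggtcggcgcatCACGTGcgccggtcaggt
Lamp1 held 4 sites within 61 bases of its start. A match of letters is a description and was not tested for binding.

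The second comparison asked what CP2 changed on the APP/PS1 genotype. No lysosomal gene differed at an adjusted p under 0.05 by edgeR, DESeq2 or limma-voom. Of all 16407 genes tested 1 did by edgeR, which was lower (0.00609%), 1 by limma-voom, also lower, and by DESeq2 8 were higher and 15 lower. At an unadjusted p under 0.05, 0 of the 54 genes tested were higher and 3 lower by edgeR, where 2.88% of all genes tested were higher and 3.66% lower by the same test. By DESeq2 4 of the 54 differed, where 590 of all genes were higher and 672 lower, and by limma-voom 4, where 588 were higher and 772 lower. In 0 genes did the groups not overlap, against 0.561% of all genes higher and 0.616% lower. Median log2 fold changes were -0.0365 for hydrolases, -0.0757 for membrane proteins, -0.16 for cofactors and -0.0261 for V-ATPase genes, beside -0.006 over all genes. The hydrolase median minus the V-ATPase median was -0.0104, a difference whose sign changed in several fits without 1 mouse.

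The 3 genes with an unadjusted p under 0.05 were 1 membrane protein and 2 V-ATPase genes. Tmem175 was at 39.1, 38.5, 38.2, 37.9 and 35.97 CPM with CP2, against 39.6, 39.5, 38.4, 41.6 and 43.4 CPM without (log2 fold change -0.099, standard error 0.043, edgeR unadjusted p = 0.0425). Atp6v0e, a small V0 subunit, was at 20.9, 23.7, 18.2, 18.5 and 19.4 CPM with CP2 and 21.9, 23.7, 20.8, 25.4 and 22.8 CPM without (log2 fold change -0.19, standard error 0.080, edgeR unadjusted p = 0.0345). Both genes overlapped between the groups and had an edgeR adjusted p of 0.744. Atp6v1c2 was at 1.83, 2.14, 1.42, 1.45 and 1.84 CPM with CP2 and 2.97, 3.09, 2.32, 1.69 and 1.75 CPM without (log2 fold change -0.45, standard error 0.199, edgeR unadjusted p = 0.0444). It shares 2.30% of its exon bases in GENCODE vM21 with the opposite-strand gene Pdia6, whose mean count was 8176.5 against 177 for Atp6v1c2. Reads from shared bases cannot be told apart, and how many of its reads came from Pdia6 was not tested.

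Of the hydrolases that had risen with genotype none passed either threshold under CP2, and the treated mice were widely spread. Gusb was at 37.9, 39.7, 29.2, 26.1 and 25.6 CPM with CP2 (log2 fold change -0.12, standard error 0.141, adjusted p = 0.861), and mice 21 and 22 were above the other 3. The same mice led for Man2b1, at 108, 109.6, 74.3, 74.4 and 75.9 CPM (log2 fold change -0.096, standard error 0.163, adjusted p = 0.908), and for Hexa, at 92.8, 94.3, 71.02, 68.8 and 65.98 CPM (log2 fold change -0.036, standard error 0.130, adjusted p = 0.96). Naglu was at 17.4, 17.8, 15.3, 14.01 and 14.6 CPM and Lgmn at 139.7, 136, 127, 116 and 114 CPM, with log2 fold changes of -0.13 and -0.12 (adjusted p = 0.797 and 0.77). Over the 23 hydrolases estimates ran from -0.13 to 0.18 (Tpp1), with standard errors from 0.04 to 0.18.

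Among the cofactors all 4 estimates were below 0. Grn was at 200.4, 209, 213, 172 and 173 CPM with CP2 (log2 fold change -0.36, standard error 0.174, adjusted p = 0.744), its highest value lying below those of 3 of the 5 APP/PS1 mice. Npc2 was at 93.9, 98.1, 79.5, 76.2 and 73.4 CPM (log2 fold change -0.18, standard error 0.111, adjusted p = 0.757) and Gm2a at 74.1, 75.6, 68.4, 62.2 and 60.7 CPM (log2 fold change -0.14, standard error 0.079, adjusted p = 0.749). Lamp1, at 393, 388, 356, 351 and 330.1 CPM, and Lamp2, at 138, 144, 117, 118 and 117 CPM, had log2 fold changes of -0.076 and -0.096 (adjusted p = 0.85 and 0.837). Tfeb was at 11.7, 11.6, 10.5, 10.9 and 11.1 CPM (log2 fold change 0.053, standard error 0.103, adjusted p = 0.919). In V1, 9 of 10 tested subunits had estimates below 0, the lowest after Atp6v1c2 being Atp6v1g1 (log2 fold change -0.20, standard error 0.094, adjusted p = 0.744), and in V0 4 of 8.

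**Figure D5:**
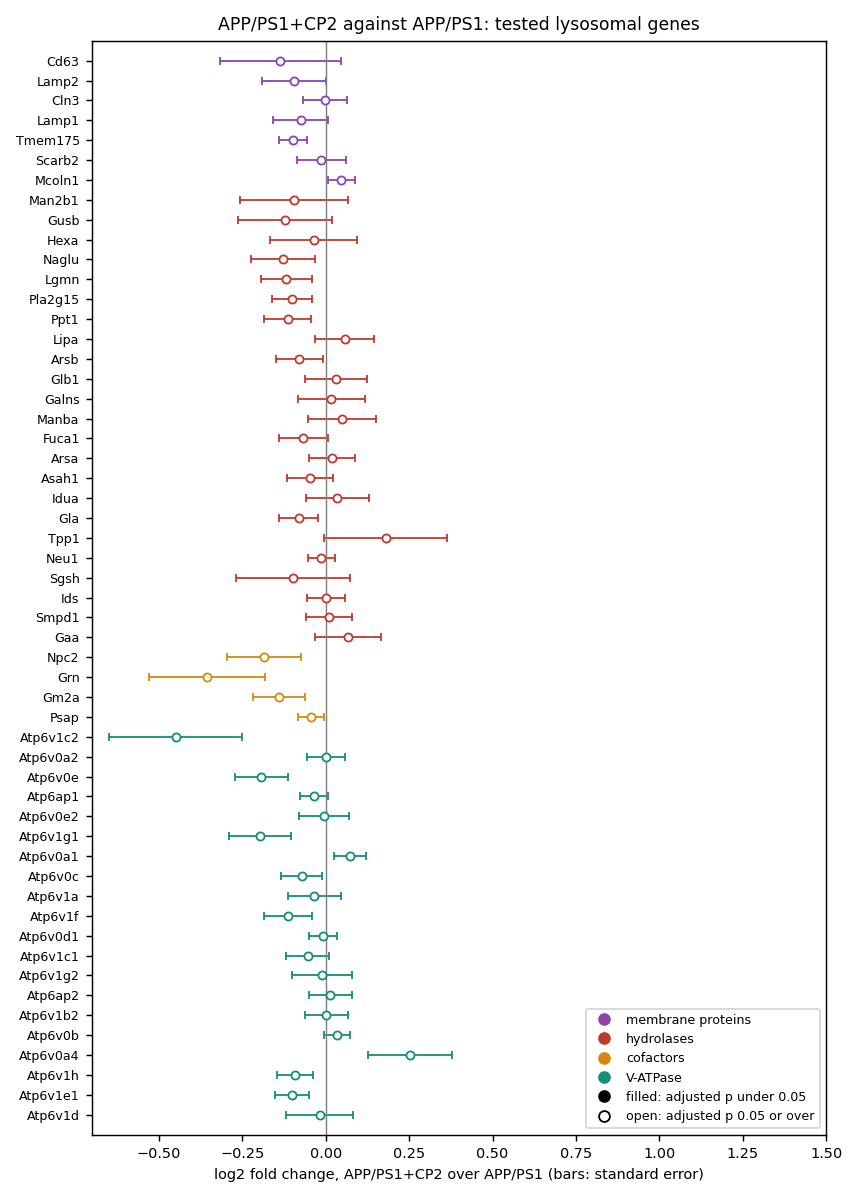
Log2 fold change of CP2-treated over vehicle APP/PS1 mice (x axis, the same range as in the plot of APP/PS1 against NTG mice) for the 54 genes tested, in the same order, with standard errors as bars. No point is filled, since no adjusted p was under 0.05, and estimates run from -0.45 (Atp6v1c2) to 0.25 (Atp6v0a4). Both genes have low counts and share exon bases with genes of higher counts, Atp6v1c2 with Pdia6 (2.30%) and Atp6v0a4 with D630045J12Rik (5.21%, same strand).

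Left out of this comparison, mouse 16 changed the count: 8 genes were then lower at an unadjusted p under 0.05, where 5.29% of all genes tested were lower, and 0 higher, still with 0 at an adjusted p. They were the cofactors Grn (log2 fold change -0.47, edgeR unadjusted p = 0.00676), Npc2 (-0.27) and Gm2a (-0.19), Lgmn (-0.17), Tmem175 (-0.10) and the V-ATPase genes Atp6v0e (-0.20), Atp6v1g1 (-0.22) and Atp6v1f (-0.15). The adjusted p of Grn was 0.428. The medians were then -0.0877 for hydrolases, -0.10 for membrane proteins, -0.23 for cofactors and -0.0325 for V-ATPase genes, beside -0.0006 over all genes tested. With all mice included, estimates were below 0 for 12 of 12 microglial, 14 of 15 plaque-associated microglial, 7 of 10 astrocyte and 7 of 10 oligodendrocyte markers. They were below 0 for 9 of 9 striatal, 4 of 12 neuronal and 4 of 10 endothelial markers, and for 8614 of all 16407 genes tested. No marker passed at an adjusted p. At an unadjusted p under 0.05, 1 microglial (C1qa), 1 plaque-associated microglial (Lpl), 1 astrocyte (Slc1a3) and 2 oligodendrocyte markers (Mal and Cldn11) were lower. The part of cell types in these values was not tested.

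In the other lists 0 genes passed the adjusted test under CP2. Among partners of the V-ATPase, Atp6ap1l had a log2 fold change of -0.62 (edgeR unadjusted p = 0.00122, adjusted p = 0.744), with no overlap between the groups, followed below 0 by Ccdc115 (-0.0865), and Dmxl1 and Dmxl2, parts of the complex that helps V1 assemble on V0, were at 0.12 (edgeR unadjusted p = 0.0139) and 0.11. The leading other enzymes were Hgsnat (0.066) and Naaa (0.12) above 0 and Sumf1, which activates sulfatases (-0.11), and Smpdl3a (-0.16) below. For membrane proteins they were Sidt2 (0.0998) and Slc38a9 (0.18) above and the cystine exporter Ctns (-0.14) and the channel Tpcn2 (-0.18) below, and for delivery and regulation Sort1 (0.11), Lmbrd1 (0.033), Lamtor1 (-0.13) and Lamtor2 (-0.094).

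The third comparison set CP2-treated APP/PS1 mice against NTG mice. It shares the NTG mice with the first comparison and the treated mice with the second. Higher at an adjusted p under 0.05 were 12 of 54 genes (9 hydrolases, 2 membrane proteins, 1 cofactor and 0 V-ATPase genes) and lower were 0, where 4.56% of the 16416 genes tested were higher and 1.46% lower. At an unadjusted p, 22 were higher and 1 lower (11.6% and 8.59% of all genes tested). The groups did not overlap for 16 genes, all higher, against 6.41% of all genes higher and 3.3% lower.

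Again the same 4 glycosidases had the largest fold changes. The log2 fold change was 1.10 for Man2b1, 1.04 for Gusb, 0.85 for Hexa and 0.70 for Naglu, with adjusted p from 0.00096 to 0.00143. In the first comparison they had been 1.19, 1.15, 0.88 and 0.83. All 5 treated mice were above all 4 NTG mice for each. The other hydrolases called were Lipa (0.37), Lgmn (0.33), Glb1 (0.32), Pla2g15 (0.30) and Arsb (0.24), with adjusted p from 0.0115 to 0.0362. Lipa was at 20.6, 18.96, 21.3 and 22.1 CPM in NTG, 20.7, 26.2, 25.2, 28.6 and 28.5 CPM in APP/PS1 and 28.7, 29.1, 23.3, 26.8 and 26.6 CPM in treated mice, so that 1 APP/PS1 mouse (16) but no treated mouse fell in the NTG range.

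Of the membrane proteins Cln3, at 16.1, 14.8, 15.04, 13.8 and 13.1 CPM in treated mice (log2 fold change 0.29, standard error 0.072, adjusted p = 0.0402), and Cd63, at 90.3, 94.6, 70.6, 63.7 and 61.4 CPM (log2 fold change 0.55, standard error 0.140, adjusted p = 0.0435), were called, and Lamp1 was not (log2 fold change 0.16, standard error 0.058, adjusted p = 0.147). The call of Cln3 was lost in 8 of 9 fits without a mouse and that of Cd63 in 6 of 9, and Cd63 also lost it in a joint fit of the 3 groups (edgeR adjusted p = 0.125). Npc2 was called among the cofactors (log2 fold change 0.53, standard error 0.095, adjusted p = 0.00792). Gm2a and Grn were not, with log2 fold changes of 0.15 and 0.26 (adjusted p = 0.241 and 0.246). The median log2 fold change was 0.22 for hydrolases and -0.0304 for V-ATPase genes, beside -0.0015 over all genes tested, a difference of 0.25 between the classes.

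Estimates for V1 lay below 0 in 10 of 10 tested genes, with a median of -0.10, against 4 of 8 in V0. The 1 gene lower at an unadjusted p under 0.05 was Atp6v1e1, at 336, 351, 305 and 303 CPM in NTG, 315, 324, 309, 296 and 292 CPM in APP/PS1 and 283, 293, 312, 284 and 266 CPM in treated mice. The groups overlapped (log2 fold change -0.17, standard error 0.059, edgeR unadjusted p = 0.0148, adjusted p = 0.131). In the opposite direction Atp6v0a2, at 53.9, 54.8, 49.98, 49.9 and 50.8 CPM in treated mice, was above all NTG mice (log2 fold change 0.15, standard error 0.043, edgeR adjusted p = 0.0711), and it was called by DESeq2 (adjusted p = 0.0263) and limma-voom (adjusted p = 0.0492). Tcirg1 was at 25.1, 26.1, 20.5, 19.3 and 21.7 CPM in treated mice (log2 fold change 0.59, standard error 0.089, adjusted p = 0.00287).

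Of the other lists, 4 of 18 enzymes, 4 of 26 membrane proteins, 1 of 21 genes of delivery and regulation and 1 of 13 V-ATPase partners were higher at an adjusted p under 0.05, and 0 lower. Over all genes tested, 4.56% were higher and 1.46% lower, and the count for delivery and regulation was near that share. Man2b2 (log2 fold change 0.46, adjusted p = 0.00137) was among the enzymes called, with Hgsnat (-0.17) and Smpdl3a (-0.21) first below 0. Cd68 (log2 fold change 2.03, adjusted p = 0.000252) and Laptm5 (log2 fold change 1.30, adjusted p = 0.000365) led the membrane proteins, with Abcb9 (-0.11) and Tmem106b (-0.078) below 0. Fnip2 was called again (log2 fold change 0.28, adjusted p = 0.0171), and Nagpa (0.25), Gnptg (-0.087) and Lamtor5 (-0.19) were not, nor among V-ATPase partners were Wdr7 (0.098), Rogdi (-0.083) and Tldc1 (-0.13). Microglial markers were higher in 10 of 12 at an adjusted p, those of plaque-associated microglia in 13 of 15, endothelial markers in 4 of 10 and blood markers in 1 of 5 tested. At an unadjusted p under 0.05 endothelial markers were higher in 8 of 10 and blood markers in 5 of 5, beside 11.6% of all genes tested. Of 10 astrocyte markers 2 were higher and 2 lower at an adjusted p, of 10 oligodendrocyte markers 1 was higher, and of neuronal, striatal, choroid plexus and meningeal markers 0 passed. The part of these cell types was not tested here either.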

How the data were processed

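RNA libraries were made from 14 mouse brains with the TruSeq RNA Library Prep Kit v2, which does not mark strand, and 1 library per mouse was deposited in a table of gene counts and RPKM values. The authors aligned reads to mm10 with TopHat2 and counted them per Ensembl gene with featureCounts (Subread), allowing reads to be assigned to every gene they overlap, so that overlapping genes share reads. How strand was set in counting and which release of TopHat2 ran are not given in the sources used here. The deposited RPKM values were computed by the authors with a larger total than the sum of the deposited counts, and they were used here for levels per length alone.

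From the deposited counts, groups were compared in pairs with the edgeR quasi-likelihood test (edgeR 4.0.16, R 4.3.3, TMM factors), with Benjamini-Hochberg adjustment over all genes that passed a filter on low counts (robust CPM above 1 in all mice of 1 or both groups). Since the mice were separate animals, p-values measure the spread between mice. Of 26 pairs of replicates none matched within sampling noise (lowest chi-square per degree of freedom 10.53). Log2 levels used a prior count of 2. Promoter windows came from RefSeq (GRCm38.p6). Exon overlaps were computed from GENCODE vM21. Scripts were tested on simulated data and used limma 3.58.1, DESeq2 1.42.0, Python 3.11.15, pandas 2.3.3, numpy 2.4.6 and matplotlib 3.10.9.

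Genes given with values in every mouse were Lamp1, Tfeb and, per class and direction, the up to 5 (APP/PS1 against NTG) or 3 (other comparisons) with the smallest unadjusted p under 0.05. Others, such as Tpp1, Lipa and Tcirg1, were added after their values were seen. From other lists of lysosomal genes the 2 with the smallest p in each direction were named, except for some that are not reported here. The genes and lists were chosen with earlier results of these data known. Alternatives were DESeq2, limma-voom with quality weights, RLE and upper-quartile factors, no filter, a minimum of 10 counts per mouse, a joint fit of the 3 groups, the share of ribosomal RNA-like counts (2.4 to 7.5%) as a covariate, and each mouse left out in turn.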

Additional observations from a re-analysis of the deposited data

Results flagged for a closer look

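In 5 of 162 groups of mice (54 genes in 3 groups), 1 mouse lay far from the rest by Dixon's ratio of its gap to the range of the group, where chance gives about 1 in 20, or 8.1. In NTG mice these were Ppt1, lowest in mouse 9 at 113 CPM against 116 to 117 CPM (ratio 0.83), Atp6v0d1, lowest in mouse 7 at 149.8 CPM against 163 to 165 CPM (ratio 0.872), Arsb, highest in mouse 10 at 120.4 CPM against 104.9 to 106.3 CPM (ratio 0.911), and Atp6v1c1, highest in mouse 8 at 219.99 CPM against 209 to 209.6 CPM (ratio 0.947). In APP/PS1 mice it was Asah1, lowest in mouse 16, the library with high striatal markers, at 50.7 CPM against 57.8 to 60.5 CPM (ratio 0.717).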

How the results depend on the processing

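In APP/PS1 against NTG mice, 18 lysosomal genes passed an adjusted p under 0.05 with limma-voom against 11 with edgeR and 16 with DESeq2, all of them higher, where 1108, 712 and 1098 of all genes were higher. Leaving out single mice gave 8 in 7 of 9 fits (without mouse 7, 8, 9, 17, 18, 19 or 20), 10 without mouse 10 and 18 without mouse 16, and no filter gave 8. Over all genes those higher numbered 469 to 603 in these 7 fits, against 712 with all mice. They numbered 533 without mouse 10, 1094 without mouse 16 and 773 without the filter. V-ATPase genes of the symbol pattern, which leaves out Tcirg1, numbered 0 in every alternative run for this comparison. The hydrolase median minus the V-ATPase median was 0.3303 with the ribosomal RNA-like share as a covariate against 0.2085 in the edgeR fit, and the cause was not tested. For CP2-treated against vehicle APP/PS1 mice the same difference was near 0 (-0.0104) and changed sign with limma-voom (0.0028) and without mouse 18 (0.016), 19 (0.0349), 20 (0.0028), 23 (0.0369), 24 (0.0296) or 25 (0.0282), ranging from -0.0591 to 0.0369 with single mice left out. Genes with an unadjusted p under 0.05 there numbered 0 (without mouse 24 or 25), 1 (without 17 or 19), 5 (without 22) and up to 8 (without 16), against 3. Over all genes those with such a p numbered 314 higher and 328 lower without mouse 24, 278 and 418 without 25, 336 and 446 without 17, 535 and 568 without 19, 554 and 805 without 22, and 702 and 873 without 16, against 473 and 601. In CP2-treated against NTG mice 1 V-ATPase gene, Atp6v0a2, passed the adjusted test with DESeq2 and 1, the same gene, with limma-voom, against 0 with edgeR, and the count of lysosomal genes called was 7 (without mouse 9 or 21) to 12 against 12. Over all genes those higher numbered 464 without mouse 9 and 494 without mouse 21, against 749 with all mice.

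Calls of single genes near the threshold changed. In APP/PS1 against NTG mice Cln3 and Gm2a lost theirs in most fits without a mouse, without the filter and with the covariate. In treated against NTG mice Cln3 lost its call in 8 of 9 fits without a mouse, without the filter, with a minimum of 10 counts and with the covariate, and Cd63 in 6 of 9, in the joint fit (edgeR adjusted p = 0.125) and with the covariate (0.0796). Lgmn lost its call in that comparison without mouse 10 (edgeR adjusted p = 0.0505). Gusb, Man2b1, Hexa, Naglu and Npc2 were called in APP/PS1 against NTG mice in every alternative run. Median levels per length were 9.56 for hydrolases and 86.2 for V-ATPase genes as CPM per kilobase, against 7.67 and 69.2 RPKM. No paired analysis was possible because the groups share no replicate numbers. With 4 or 5 mice a group, small changes of V-ATPase genes could not be told from 0.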
